A study of Mus musculus with 6 samples.

Results

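A set of 10 transcription factors of sinusoidal and general endothelial identity (Gata4, Gata2, Tfec, Tal1, Lmo2, Hhex, Sox7, Sox17, Sox18 and Meis1) was followed in RNA sequencing counts of primary mouse liver sinusoidal endothelial cells. They were chosen by gene symbol, and all 10 were found among the 23337 genes of the count table and passed the filter on low counts. All samples were isolated from mouse liver with immunomagnetic beads, grown with fetal bovine serum, seeded on collagen IV and then kept without serum. The 3 control libraries came from unstretched cells, and the 3 stretch libraries from cells on a Flexcell device, a flexible-bottomed plate system that pulls the layer cyclically, set to 4% stretch and 1 Hz. The sources used here do not give the strain, age, sex or number of mice or how long the stretch lasted. No label says that the libraries of a group came from separate animals or isolations, so the p-values measure only the spread between these libraries, which may be technical.

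These factors act in overlapping circuits. GATA4 is known as a controller of the sinusoidal phenotype of liver endothelium, and GATA2 serves endothelial and blood progenitor cells more widely. GATA factors work with the basic helix-loop-helix protein TAL1, bridged by LMO2 and the LDB1 scaffold. SOX7, SOX17 and SOX18 form the SoxF family, whose members share many binding sites and can partly replace each other in vessels. HHEX is a homeodomain repressor needed for liver and endothelial development, MEIS1 is a homeodomain cofactor that pairs with PBX and HOX proteins, and TFEC is a MiT family factor enriched in sinusoidal endothelium and in macrophages.

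The libraries held between 48948948 and 68489956 gene counts, and each member had between 149 and 14082 counts in a library. The cells carried the transcripts their label implies: all 9 sinusoidal markers examined were detected, with summed levels of 8502 ± 599 CPM (CPM, counts scaled to a common library size with TMM factors; mean ± SD, n = 3 per group) in control and 6271 ± 517 CPM in stretch libraries. Of these 9 genes, 7 were called lower and 0 higher in the test given below, where 22.6% and 21.4% of all genes tested were. In bulk RNA, fewer cells of a type and less RNA per cell cannot be told apart. The 8 general endothelial markers summed to 8780 ± 491 and 8055 ± 347 CPM, and 6 of them fell and 0 rose, against the same shares. The calls of Stab2, Tie1 and Egfl7 were each lost without control replicate 2, control replicate 4, stretch replicate 2 or stretch replicate 4. Transcripts of other cells were scarcer. Hepatocyte markers (12 genes) summed to between 33.7 and 74.2 CPM in control libraries, to 99.5 and 98.5 CPM in stretch replicates 2 and 4 and to 503 CPM in stretch replicate 1. The summed macrophage markers (12 genes) ranged from 112 to 121 CPM across control libraries and from 145 to 186 CPM across stretch libraries. Most of that sum was Cd68 and Cd14, whose ranges overlapped between the groups. Lyz2 was at 20.4, 15.4 and 10.7 CPM in control and 36.2, 30.9 and 33.3 CPM in stretch libraries. Bile duct markers (5 genes) summed to 127 ± 19.7 and 206 ± 31.6 CPM, and mesothelial markers (5 genes) to 209.7 ± 20.5 and 322 ± 62.3 CPM. Most of the mesothelial sum was Krt8, at 159, 158 and 191 CPM in control and 308, 290 and 224 CPM in stretch libraries. The ranges of Msln, Upk3b, Wt1 and Krt19 overlapped between the groups. Lymphocyte markers reached at most 1.78 CPM in sum and erythroid and megakaryocyte markers at most 5.15 CPM, and the mast cell genes Mcpt4, Tpsb2, Fcer1a and Ms4a2 were at 0 counts in all 6 libraries. The mast cell list summed to 555 ± 58.1 and 432 ± 37.3 CPM, nearly all of it Kit. Stellate cell and fibroblast markers (12 genes) summed to 78.5 ± 4.58 and 73.9 ± 22.4 CPM.

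After stretch 2 of the 10 factors rose, 5 fell and 3 did not pass. Sox7 and Tfec rose about as far as Hhex fell, Sox18 and Meis1 had the largest decreases, and the decreases of Tal1 and Gata2 were small. Gata4, Lmo2 and Sox17 did not pass. The test was edgeR's quasi-likelihood test, adjusted by Benjamini-Hochberg over 14222 genes with a threshold of 0.05. Much of the transcriptome differed between the groups, and 44.0% of all genes tested were called, 21.4% as higher (3040 genes) and 22.6% as lower (3221). With library sizes alone as scaling the split was 2091 and 4299. The 7 called members are to be read against those shares. The group ranges of CPM did not overlap for 7 of the 10 members, against 55.9% of all genes tested; 2 members stood higher (26.7% of all genes) and 5 lower (29.2%). The median log2 fold change was -0.19 for the 10 members and -0.01 for all genes tested, and the median absolute log2 fold change was 0.42 for the members, against 0.26 for all genes tested and 0.41 for all called genes. Without stretch replicate 1, the library with the most hepatocyte transcripts, 2 members were called higher and 4 lower, and the call that was lost was that of Gata2.

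**Figure D1:**
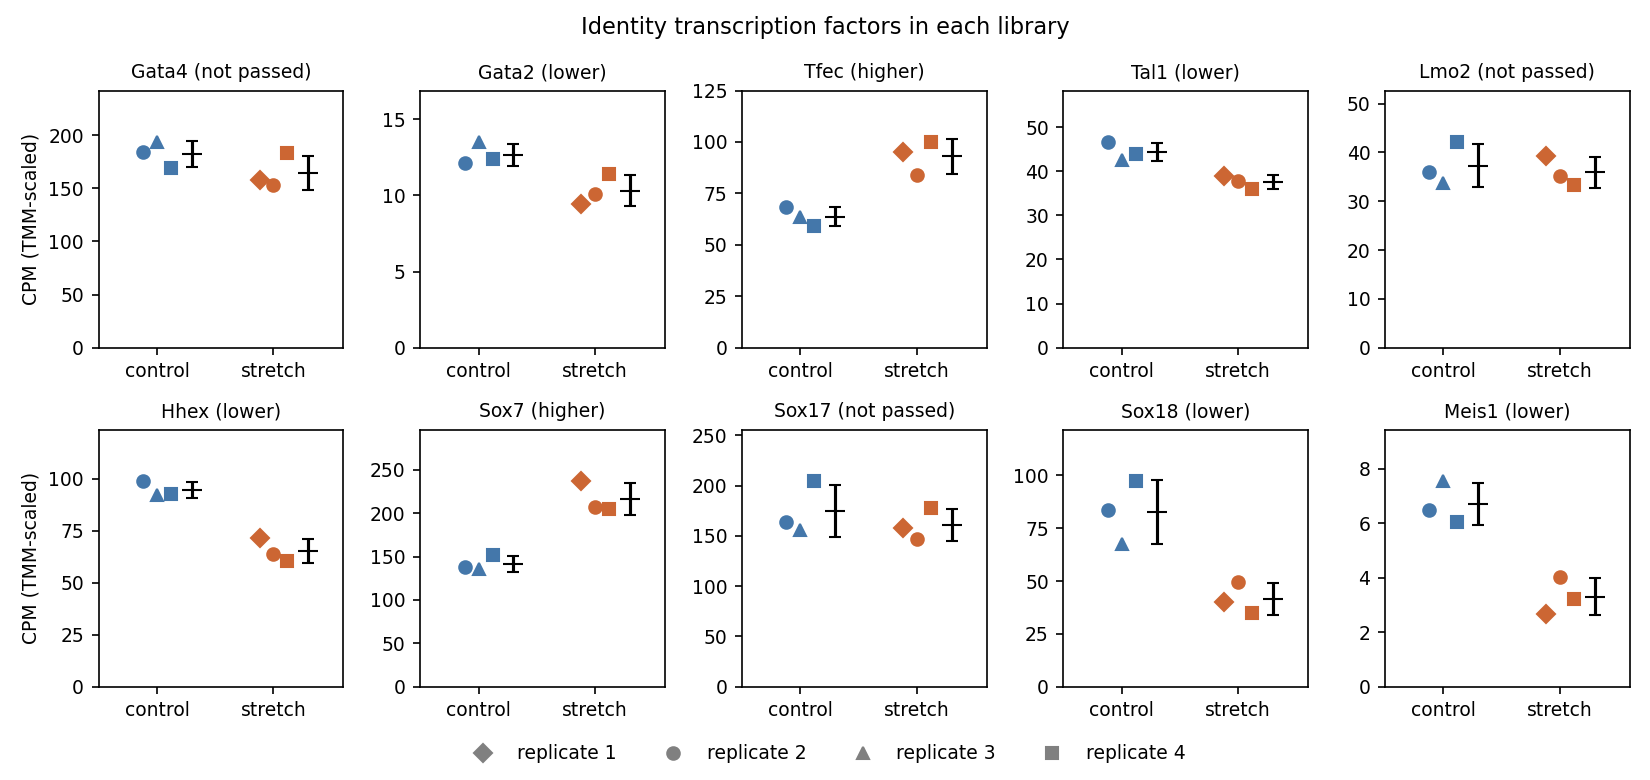
TMM-scaled CPM (vertical axes, each starting at 0) of the 10 transcription factors in 3 control (blue) and 3 stretch (orange) libraries; marker shapes give the replicate number, and the bars at the right of each group give mean ± SD. The groups stand apart for Gata2, Tfec, Tal1, Hhex, Sox7, Sox18 and Meis1 and overlap for Gata4, Lmo2 and Sox17.

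The SoxF family showed opposite changes within 1 family. Sox7 (chromosome 14, 63943706 to 63950732, in the authors' table on GRCm38) was at 137, 135 and 151 CPM in control replicates 2, 3 and 4 and at 237, 207 and 204 CPM in stretch replicates 1, 2 and 4. Each stretch library lay above each control library. This was a 1.53-fold rise (log2 fold change 0.61 ± 0.07, SE; edgeR adjusted p = 0.000289). Sox18 (chromosome 2, 181669837 to 181671640), which is known for its part in lymphatic development, went the other way, from 83.4, 67.3 and 97.4 CPM in control replicates 2, 3 and 4 to 39.98, 49.6 and 34.97 CPM in stretch replicates 1, 2 and 4. The groups did not overlap, although its control libraries had the widest relative spread of the 10 factors, with a coefficient of variation of 18.2%. Sox18 fell 1.99-fold (log2 fold change -0.99 ± 0.15, SE; edgeR adjusted p = 0.00118). Sox17 (chromosome 1, 4490928 to 4496413), a factor of arterial endothelium, had 164, 156 and 205 CPM in the control replicates and 158, 147 and 178 CPM in the stretch replicates, in the same order. Its ranges overlapped, and its log2 fold change of -0.12 ± 0.11 did not pass (edgeR adjusted p = 0.397). With the replicate block, which adds the replicate number to the model, it was -0.18 and passed (edgeR adjusted p = 0.0293). Only numbers 2 and 4 occur in both groups, so control replicate 3 and stretch replicate 1 add nothing to that blocked value. Those libraries also add nothing to the spread of Sox17 behind the blocked p-value, which thus rests on fewer libraries than the main fit. In the fit without the block and without control replicate 4, the highest library for Sox17, its log2 fold change was 0.01.

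Per kilobase of transcript the 3 SoxF genes were at similar levels in static cells and at unequal levels in stretched cells. In deposited RPKM, Sox7, Sox17 and Sox18 made up 28.97 ± 2.096%, 37.2 ± 1.13% and 33.8 ± 2.23% of their summed level in control libraries (mean ± SD, n = 3 per group). In stretch libraries the shares were 46.2 ± 2.57%, 35.9 ± 3.85% and 17.9 ± 3.37%. The share of Sox18 ran from 31.3% to 35.3% over control libraries and from 15.3% to 21.7% over stretch libraries. Its exact permutation p (two-sided) was 0.1, the lowest value possible with 3 against 3 libraries. For the share of Sox7 the exact permutation p was also 0.1, and for that of Sox17 it was 0.7. The ratio of Sox7 to Sox18 RPKM was 0.86 ± 0.12 in control and 2.64 ± 0.49 in stretch libraries, again without overlap (exact permutation p = 0.1, n = 3 per group). The summed SoxF level was 143 ± 20.3 RPKM in control and 129 ± 3.03 RPKM in stretch libraries, with overlapping ranges (exact permutation p = 0.3, n = 3 per group). That difference of -14.8 RPKM was -5.96 RPKM after division by the TMM factors and -3.43 RPKM without control replicate 4.

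**Figure D2:**
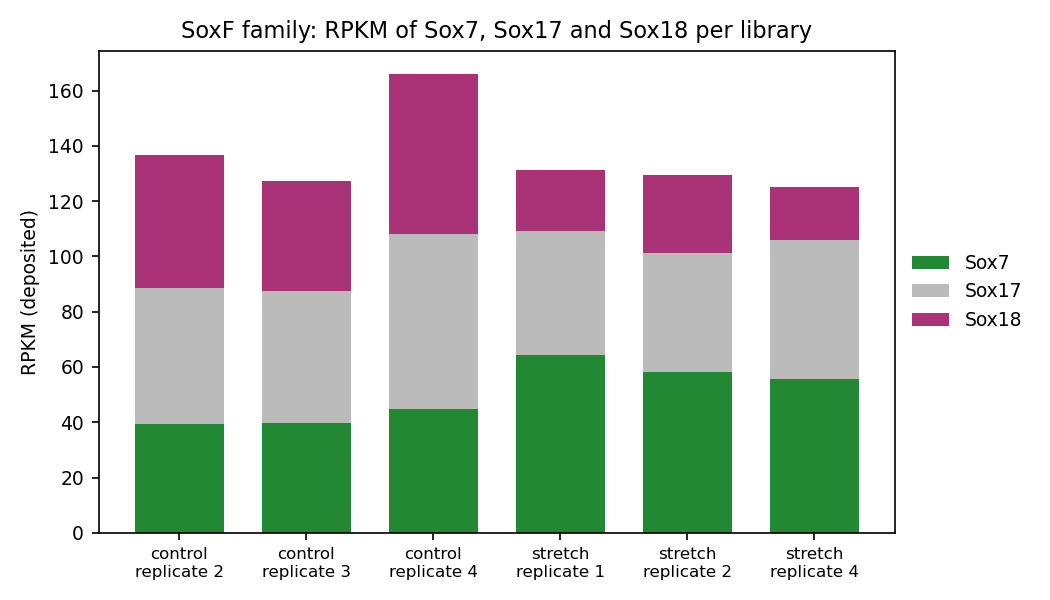
Deposited RPKM (vertical axis) of Sox7, Sox17 and Sox18, stacked for each of the 6 libraries. Bar heights overlap between groups, at 127 to 166 RPKM in control and 125 to 131 RPKM in stretch libraries, while the Sox7 part is larger and the Sox18 part smaller in each stretch library.

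Of 15 relatives and partners of the SoxF factors tested, 3 rose, 3 fell and 9 did not pass, shares close to those over all genes, and their median log2 fold change was -0.07. Nr2f2, which encodes the vein and lymphatic nuclear receptor COUP-TFII, fell 2.48-fold from 67.9, 60.3 and 67.4 to 24.2, 29.01 and 25.7 CPM (log2 fold change -1.31 ± 0.08; edgeR adjusted p = 4.56e-05). Mef2c, another endothelial transcription factor gene, fell 1.899-fold from 41.4 ± 5.52 to 21.8 ± 3.45 CPM, and Sox12 was the third that fell. Rbpj, through which Notch reaches its target genes, rose 1.26-fold. Sox9, a bile duct gene of the SoxE family, rose 1.75-fold from 3.50 ± 0.35 to 6.11 ± 0.36 CPM. The sum of the bile duct markers, of which Sox9 is 1, was higher in each stretch library. The part of bile duct RNA in this increase was not tested. Sox4 was the third that rose; without control replicate 2, control replicate 3, stretch replicate 1 or stretch replicate 4 its call was lost (edgeR adjusted p up to 0.0848). Prox1, the lymphatic regulator known as a SOX18 target, had 4.17 ± 0.36 CPM without and 4.17 ± 0.94 CPM with stretch (log2 fold change 0.00 ± 0.18; edgeR adjusted p = 0.994).

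The GATA factors and their partners were next. Gata4 (chromosome 14, 63198915 to 63245260) was at 184, 194 and 169.6 CPM in control replicates 2, 3 and 4 and at 158, 153 and 183 CPM in stretch replicates 1, 2 and 4. Stretch replicate 4 lay within the control range, and the log2 fold change of -0.15 ± 0.08 did not pass (edgeR adjusted p = 0.151). It passed when scaled by library size only (-0.24; edgeR adjusted p = 0.0239) and without stretch replicate 4 (-0.23; edgeR adjusted p = 0.0348). Gata2 (chromosome 6, 88198664 to 88207032) was scarcer, with 12.2, 13.5 and 12.4 CPM in the control replicates and 9.47, 10.1 and 11.4 CPM in the stretch replicates, in the same order. Its groups did not overlap, and it fell 1.23-fold (log2 fold change -0.30 ± 0.09; edgeR adjusted p = 0.0316). This call was lost without any 1 of control replicates 2, 3 and 4 and stretch replicates 1 and 2, with edgeR adjusted p between 0.0545 and 0.107, and under the replicate block (edgeR adjusted p = 0.209). In the authors' deposited table Gata2 had a log2 fold change of -0.30 with an FDR of 0.065. On the RPKM scale Gata4 was 13.8 ± 0.70 times as abundant as Gata2 in control and 15.3 ± 0.71 times in stretch libraries (mean ± SD, n = 3 per group; exact permutation p = 0.1).

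Tal1 and its partners moved by unequal amounts. Tal1 (chromosome 4, 115059527 to 115071755) had 46.7, 42.5 and 43.97 CPM in control replicates 2, 3 and 4 and 38.998, 37.7 and 35.97 CPM in stretch replicates 1, 2 and 4. Every stretch library lay below every control library, and Tal1 fell 1.181-fold (log2 fold change -0.24 ± 0.06; edgeR adjusted p = 0.00827). Lmo2 (chromosome 2, 103957995 to 103981878), the bridging LIM-domain protein, had 35.9, 33.8 and 42.2 CPM in the control replicates and 39.4, 35.1 and 33.3 CPM in the stretch replicates. Its ranges overlapped, and its log2 fold change of -0.05 ± 0.09 did not pass (edgeR adjusted p = 0.669) and was 0.04 without control replicate 4. Of 18 tested partners and relatives of the GATA, TAL1 and LMO2 complex, 3 rose, 10 fell and 5 did not pass. Their median log2 fold change was -0.24, against -0.01 for all genes tested. The called share of this list was 72.2%, against 44.0% over all genes tested. Cbfa2t3, whose product ETO2 is a corepressor of the complex, fell 3.04-fold from 29.5, 21.5 and 26.5 CPM to 7.05, 10.7 and 7.65 CPM (log2 fold change -1.61 ± 0.17; edgeR adjusted p = 0.000199). Lyl1, the nearest relative of Tal1, fell 2.90-fold from 10.8, 9.35 and 11.8 CPM to 3.28, 3.71 and 4.02 CPM (log2 fold change -1.54 ± 0.13; edgeR adjusted p = 8.53e-05). In RPKM, Tal1 was 1.82 ± 0.18 times as abundant as Lyl1 in control and 4.47 ± 0.64 times in stretch libraries, with no overlap between groups (exact permutation p = 0.1, n = 3 per group).

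The LDB scaffold genes, their stabilizers and the GATA cofactors of the list fell as well. The scaffold gene Ldb1 fell 1.45-fold from 97.8 ± 7.47 to 67.5 ± 3.20 CPM (edgeR adjusted p = 0.000371), and its relative Ldb2 fell 1.71-fold. The genes of the LDB-stabilizing proteins Ssbp2, Ssbp3 and Ssbp4 fell 1.47-fold, 1.29-fold and 1.198-fold, and the GATA cofactor genes Zfpm1 and Zfpm2 (FOG1 and FOG2) fell 1.16-fold and 1.26-fold. The call of Zfpm1 was lost without control replicate 3 or stretch replicate 2 (edgeR adjusted p up to 0.0637). The E proteins that pair with TAL1 and LYL1 differed. Tcf4 rose 1.69-fold from 398, 402 and 422 CPM to 737, 653 and 674 CPM (log2 fold change 0.76 ± 0.06; edgeR adjusted p = 6.92e-05), Tcf3 fell 1.34-fold, and Tcf12 had a log2 fold change of -0.12 ± 0.04 that did not pass (edgeR adjusted p = 0.0527). Id1, which encodes an inhibitor of E proteins, rose 1.28-fold from 9.63 ± 0.12 to 12.4 ± 1.13 CPM. Id2 and Id3, of the same family, did not pass, with log2 fold changes of 0.01 ± 0.16 and 0.09 ± 0.08 (edgeR adjusted p = 0.968 and 0.446). Id3 was more abundant than Id1, averaging 44.5 CPM without stretch and 47.3 CPM with it. Runx1, a blood and endothelial transcription factor gene, rose 1.89-fold from 3.40 ± 0.48 to 6.44 ± 0.79 CPM. The macrophage marker sum was also higher in each stretch library, and the part of macrophage RNA in the increase of Runx1 was not tested. Gata1, Gata3, Tal2 and Lmo1 were below the filter on low counts.

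The 3 remaining factors belong to other families, and each changed. Hhex (chromosome 19, 37434841 to 37440731) was at 98.9, 92.1 and 92.8 CPM in control replicates 2, 3 and 4 and at 71.6, 63.9 and 60.2 CPM in stretch replicates 1, 2 and 4. The groups were well separated, with a fall of 1.45-fold (log2 fold change -0.54 ± 0.07; edgeR adjusted p = 0.000446). Of 13 tested relatives and partners of HHEX, 1 rose, 4 fell and 8 did not pass, with a median log2 fold change of -0.00; the called share of 38.5% lay near the 44.0% over all genes. Pml, whose product is the nuclear body protein that binds HHEX, fell 2.48-fold from 103 ± 6.80 to 41.6 ± 7.37 CPM, a difference beyond the spread of either group (log2 fold change -1.31 ± 0.12; edgeR adjusted p = 0.000105). Of the Groucho-type corepressor genes Tle4 and Tle2 fell, by log2 fold changes of -0.38 and -1.16, and Aes fell as well. Tle1 and Tle3 had log2 fold changes of 0.06 and 0.10 and did not pass.

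Tfec (chromosome 6, 16833381 to 16898441) had 68.5, 63.4 and 59.1 CPM in control replicates 2, 3 and 4 and 95.2, 83.8 and 100.01 CPM in stretch replicates 1, 2 and 4. Each stretch library was higher than each control library, a rise of 1.46-fold (log2 fold change 0.55 ± 0.08; edgeR adjusted p = 0.000816). The macrophage marker sum averaged 118 ± 4.96 CPM without stretch and 165 ± 20.7 CPM with it. Of its 11 tested genes 9 rose, where 21.4% of all genes tested did. The Kupffer cell gene Clec4f had 0 to 4 counts in 5 libraries and 22 in stretch replicate 1, and the macrophage genes Cd5l and Marco had at most 8.79 and 4.37 CPM, both in that library. Without stretch replicate 1 the log2 fold change of Tfec was 0.54. The macrophage sums of stretch replicates 2 and 4, which remain in that fit, were 145 and 162 CPM, above the control range of 112 to 121 CPM. The part of macrophage RNA in the rise of Tfec was not tested. Of the 3 other MiT family genes 2 fell, 0 rose and 1 did not pass, with a median log2 fold change of -0.52. Their called share was 66.7%, against 44.0% over all genes tested. Tfeb, a controller of lysosomal genes, fell 1.55-fold from 7.83 ± 0.49 to 5.03 ± 0.83 CPM (edgeR adjusted p = 0.00653), Mitf fell 1.43-fold from 4.66 ± 0.46 to 3.25 ± 0.31 CPM (edgeR adjusted p = 0.0181), and Tfe3 did not pass, at 0.11 ± 0.05 on the log2 scale. The call of Mitf was lost without control replicate 2, control replicate 3 or stretch replicate 4 (edgeR adjusted p between 0.0577 and 0.0656). Tfec made up 59.2 ± 2.43% of the summed RPKM of these 4 genes in control and 67.6 ± 1.38% in stretch libraries (mean ± SD, n = 3 per group; exact permutation p = 0.1).

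Meis1 (chromosome 11, 18880428 to 19018969) was the scarcest member per kilobase, and its change did not differ in size from that of Sox18 by more than their SEs. It was at 6.501, 7.55 and 6.05 CPM in control replicates 2, 3 and 4 and at 2.67, 4.04 and 3.22 CPM in stretch replicates 1, 2 and 4. No stretch library reached the control range, and the fall was 2.02-fold (log2 fold change -1.01 ± 0.17; edgeR adjusted p = 0.00193). Meis1 was the 1 member both called and changed at least 2-fold, against 4.60% of all genes tested, and Sox18 lay just under that fold. The order of the pair turned with the replicate block (Meis1 -0.80, Sox18 -1.11) and without control replicate 3 (-0.92 and -1.12) or stretch replicate 1 (-0.88 and -0.96). Meis1 was also under 2-fold in those 3 fits, without stretch replicate 4 (-0.994), with RLE factors (-0.998) and in DESeq2 (-0.997). Its more abundant relative Meis2 fell 1.53-fold, from 127, 124 and 127 CPM to 82.7, 82.7 and 82.9 CPM, with little spread in either group (log2 fold change -0.61 ± 0.04; edgeR adjusted p = 4.97e-05). The RPKM ratio of Meis2 to Meis1 overlapped between groups, at 12.4 ± 1.54 and 16.8 ± 3.42 (exact permutation p = 0.2, n = 3 per group). Of 14 tested relatives and partners of MEIS1, 1 rose, 10 fell and 3 did not pass, and the median log2 fold change was -0.57. The called share of this list was 78.6%, against 44.0% over all genes tested. Pbx2 and Pbx3, which encode DNA-binding partners of MEIS1, fell 1.64-fold and 1.204-fold, and Pbx2 went from 25.3, 22.5 and 24.2 CPM to 14.1, 15.4 and 14.3 CPM. The HOX genes Hoxa3, Hoxa5, Hoxb3, Hoxb4, Hoxb5 and Hoxb7 all fell, by log2 fold changes between -0.82 and -0.45. The call of Pbx3 was lost without control replicate 2, control replicate 3, stretch replicate 1 or stretch replicate 4 (edgeR adjusted p up to 0.11). The call of Hoxb5 was lost without control replicate 2, control replicate 4 or stretch replicate 4 (edgeR adjusted p up to 0.0677). Hoxd8 did not pass, and Pbx4, Hoxa7, Hoxa9, Hoxc8 and Hoxd3 were below the filter on low counts. Pknox1, a TALE homeodomain gene whose product competes for PBX partners, was the 1 that rose, 1.45-fold, from 51.01, 51.1 and 50.8 CPM to 75.5, 73.1 and 72.3 CPM (log2 fold change 0.53 ± 0.04; edgeR adjusted p = 7.46e-05).

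Promoter sequences of 4 called members show what lies at annotated start sites of factors that moved in opposite directions. Each runs from 250 bases before to 50 bases after an annotated RefSeq start (GRCm38.p6), 5′ to 3′ on the strand of the gene, and RefSeq entries were matched for 5 of the 10 members (Gata2, Tfec, Tal1, Hhex and Meis1). Capitals mark matches, on either strand, to AGATAA (bound by GATA factors), CAGNTG (an E-box of the kind TAL1 dimers bind), CACGTG (an E-box bound by MiT factors), ACAAT (the SOX core), TGACAG (MEIS) or TGANTCA (AP-1), and no matches overlapped.
Tfec, chr6:16898392-16898691, minus strand: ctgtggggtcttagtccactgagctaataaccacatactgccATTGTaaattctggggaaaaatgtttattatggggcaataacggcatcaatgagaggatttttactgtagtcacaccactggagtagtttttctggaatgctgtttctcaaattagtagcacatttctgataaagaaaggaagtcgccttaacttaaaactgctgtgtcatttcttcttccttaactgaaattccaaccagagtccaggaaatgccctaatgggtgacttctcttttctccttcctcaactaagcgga
Tal1, chr4:115056176-115056475, plus strand: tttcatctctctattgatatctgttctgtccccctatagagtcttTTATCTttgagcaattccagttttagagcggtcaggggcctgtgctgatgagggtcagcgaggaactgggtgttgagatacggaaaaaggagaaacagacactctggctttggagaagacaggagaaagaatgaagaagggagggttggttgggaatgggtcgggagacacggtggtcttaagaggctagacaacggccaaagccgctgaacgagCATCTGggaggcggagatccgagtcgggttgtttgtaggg
Hhex, chr19:37434591-37434890, plus strand: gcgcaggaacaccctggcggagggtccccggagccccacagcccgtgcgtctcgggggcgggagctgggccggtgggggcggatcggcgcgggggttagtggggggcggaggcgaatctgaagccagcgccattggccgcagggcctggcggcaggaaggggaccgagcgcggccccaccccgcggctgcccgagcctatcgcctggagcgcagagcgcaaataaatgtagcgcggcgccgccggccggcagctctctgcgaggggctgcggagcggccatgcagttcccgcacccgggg
Meis1, chr11:19018920-19019219, minus strand: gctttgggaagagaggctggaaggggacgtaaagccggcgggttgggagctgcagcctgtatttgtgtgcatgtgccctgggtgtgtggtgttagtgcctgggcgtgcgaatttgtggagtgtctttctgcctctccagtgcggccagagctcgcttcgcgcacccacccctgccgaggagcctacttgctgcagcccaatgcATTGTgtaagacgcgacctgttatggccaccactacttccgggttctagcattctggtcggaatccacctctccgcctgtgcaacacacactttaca
Tfec, which rose, had a promoter with 40.3% G and C and 1 match, to the SOX core, which 31.0% of 32851 RefSeq promoters of the same length hold. Hhex, which fell, had 75.7% G and C and 0 matches. The Meis1 window had 58.3% G and C and 1 SOX core match, 47 bases before the start. The window of the upstream Tal1 start, 1 of 2 annotated, had 50.7% G and C. It held an AGATAA match (held by 11.2% of promoters) 205 bases before the start and an E-box match (held by 51.4%) just after it. The Tal1 gene as counted starts 3101 bases further downstream, at 115059527, beyond the windows of both annotated starts. The MiT E-box, MEIS and AP-1 letters were in 0 of the 7 member windows, and 7.15%, 19.2% and 7.81% of all promoters hold them. The median promoter had 52.7% G and C. These matches describe letters and not binding.

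The order of the factors by level per kilobase changed between the groups. In control libraries Sox17 (53.4 ± 8.55 RPKM), Gata4 (51.3 ± 3.18), Hhex (50.9 ± 1.26), Sox18 (48.7 ± 9.16) and Sox7 (41.3 ± 3.06) followed each other with ranges that overlapped between neighbours (mean ± SD, n = 3 per group). Below them stood Tfec at 34.1 ± 1.97 RPKM, Lmo2 at 18.7 ± 2.38, Tal1 at 10.2 ± 0.37, Gata2 at 3.73 ± 0.24 and Meis1 at 1.86 ± 0.21, each apart from the next. In stretch libraries Sox7 was first at 59.4 ± 4.54 RPKM, with no overlap with the next. Tfec (46.9 ± 3.41), Sox17 (46.1 ± 3.93) and Gata4 (43.5 ± 3.76) came after it with overlapping ranges, and Hhex (33.04 ± 2.83) and Sox18 (23.1 ± 4.57) stood apart below them. Lmo2, Tal1, Gata2 and Meis1 kept ranks 7 to 10 in stretch libraries.

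**Figure D3:**
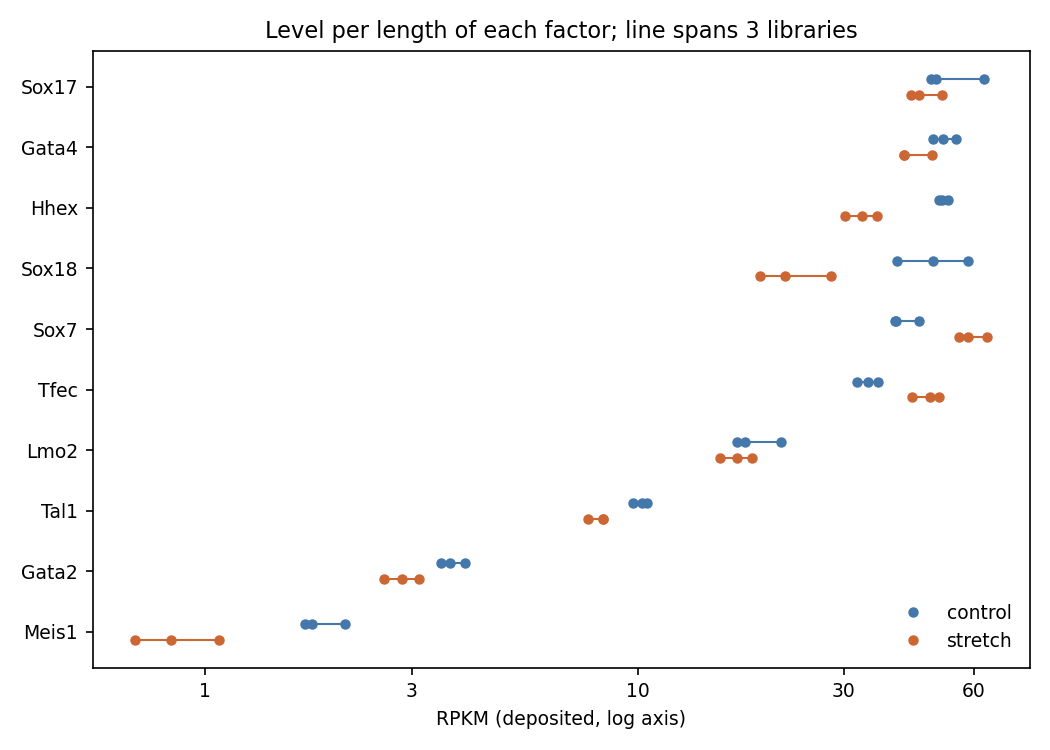
Deposited RPKM (horizontal log axis) of the 10 factors, ordered by their control mean; points are libraries, lines span the 3 libraries of a group, blue is control and orange is stretch. Sox7 moves from the fifth place to the first, and Sox18 from the fourth to the sixth.

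Endothelial genes that the literature places downstream of these factors moved in both directions. Of 22 tested, 3 rose, 6 fell and 13 did not pass, with a median log2 fold change of -0.08. The called share of 40.9% lay near the background of 44.0%. This list also holds the general endothelial markers given earlier, except Erg. The coreceptor gene Eng fell 1.48-fold from 1557 ± 82.2 to 1055 ± 65.2 CPM and the guidance receptor gene Robo4 1.52-fold from 859 ± 122 to 563 ± 30.5 CPM. Efnb2, an arterial ligand gene, rose 1.41-fold, and Rasip1, which encodes a regulator of vessel lumens, rose 1.39-fold from 281 ± 36.1 to 389 ± 27.2 CPM. The junction genes Cdh5 and Cldn5 had log2 fold changes of 0.18 ± 0.09 and 0.28 ± 0.12 and did not pass (edgeR adjusted p = 0.121 and 0.0977). The calls of Tie1 and Egfl7 were lost without control replicate 2, control replicate 4, stretch replicate 2 or stretch replicate 4 (edgeR adjusted p up to 0.0938 and 0.0864). Of 19 sinusoidal genes tested, 14 fell, 0 rose and 5 did not pass, with a median log2 fold change of -0.69. The called share was 73.7%, against 44.0% over all genes tested. This list holds all 9 sinusoidal markers given earlier, of which 7 fell, so the 2 counts are not separate observations. The clearest decreases were those of the transcription factor gene Maf and the secreted protein gene Oit3. Maf went from 237.6, 200.5 and 222 CPM to 50.3, 59.9 and 36.8 CPM, and Oit3 fell 1.86-fold. Other members of this list were the scavenger receptor genes Stab1 and Stab2, which fell 1.44-fold and 1.179-fold. The call of Stab2 was lost without the same 4 libraries (edgeR adjusted p up to 0.0905), and Lyve1 did not pass, at 0.13 ± 0.07 on the log2 scale. Across the 7 lists, 11 of 104 genes rose and 49 fell, where 21.4% and 22.6% of all genes tested did. The lists were chosen with earlier results of these data known, so the pooled counts do not stand as a test. Their called shares ran from 38.5% for the HHEX list to 78.6% for the MEIS1 list. Without stretch replicate 1 the counts for the lists were 10 and 50.

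**Figure D4:**
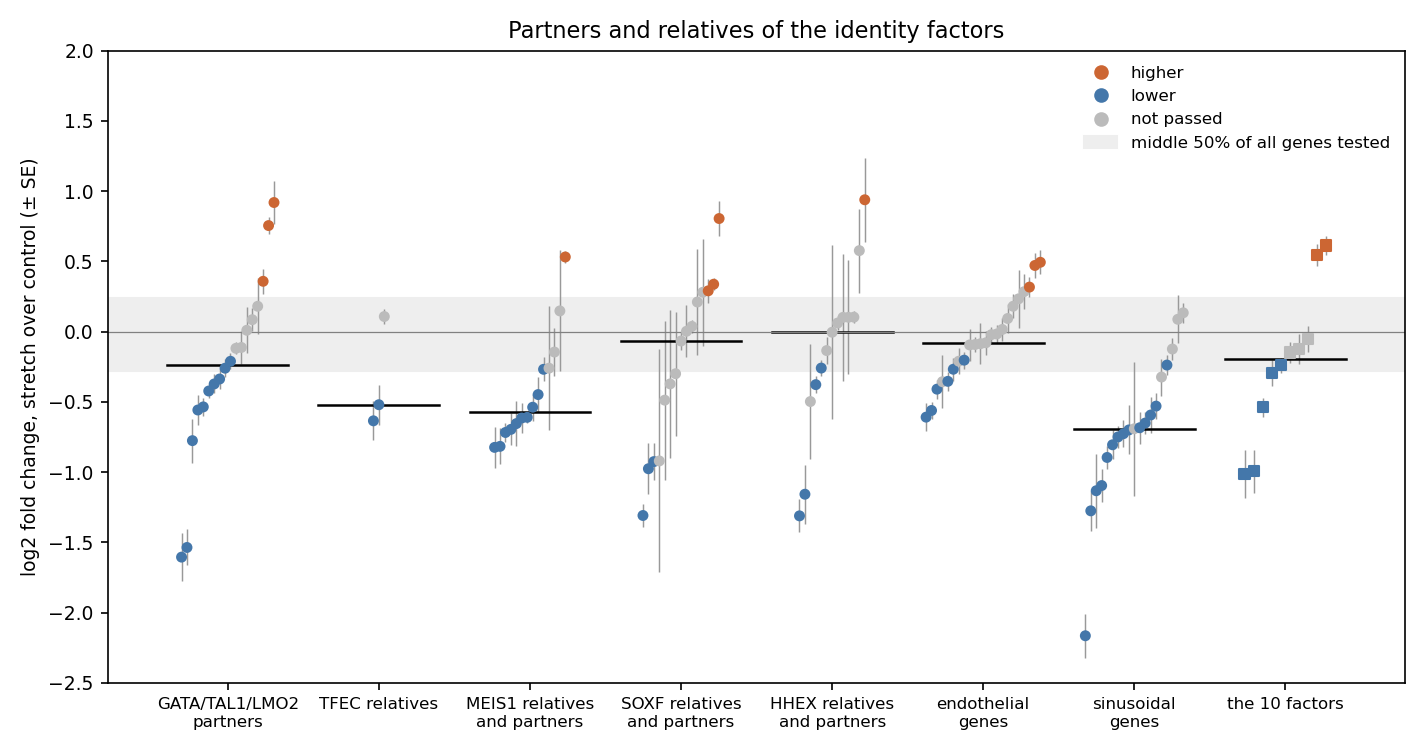
Log2 fold change of stretch over control (vertical axis; lines are ± SE from edgeR) for each tested gene of the 7 lists and for the 10 factors (squares at the right), coloured by call; black bars are medians and the grey band holds the middle 50% of all genes tested, from -0.28 to 0.24. The medians of the MEIS1, TFEC and sinusoidal lists lie below the band, at -0.57, -0.52 and -0.69.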

How the data were processed

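Transcript profiles came from TruSeq libraries of 6 samples, grouped by their titles into 3 control (replicates 2, 3 and 4) and 3 stretch libraries (replicates 1, 2 and 4). The authors' deposited counts are whole reads per gene. TopHat2 (2.1.0), featureCounts, edgeR and the build GRCm38 (mm10) are named in the submitters' processing notes, without their roles; the sources used here give neither annotation nor strand setting. The deposited RPKM values are per kilobase of the length column, per the file headers. The authors' deposited comparison table holds log2 fold changes and log2 CPM, a likelihood ratio score, and a p-value with its FDR. In the libraries 67.2% to 69.9% of the counts between 1 and 10 were even; the sources used here do not say whether both mates of a pair were counted.

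The test was run in edgeR 4.0.16 under R 4.3.3 (TMM scaling, filterByExpr, quasi-likelihood F test for group, Benjamini-Hochberg adjustment over 14222 genes, threshold 0.05). The SE was the log2 fold change divided by the square root of F. Shares, ratios and sums were compared by an exact permutation test (two-sided). RPKM was used for levels between genes and for the sums, shares and ratios of related genes, which were also compared between groups. Named genes were all 10 members and, in each list, up to 2 called genes with the smallest p in each direction. Some list genes, among them 1 that this rule names, are counted but not reported here by name. Others named from the lists were chosen after their values were seen, as were the TFEC, MEIS and TAL1 groupings on the RPKM scale. The members and lists were chosen with earlier results of these data known. The alternatives tried were 3 other scalings (RLE, upper quartile and library size only), other filters (none, or 1 CPM in 3 libraries), DESeq2 1.42.0, limma-voom (limma 3.58.1), the edgeR exact test, robust dispersion, glmTreat at a fold of 1.2, the replicate block and each library left out. On simulated data for stretch against control (14113 genes tested, 198 changed) 59.0% of genes changed 1.5-fold and 93.9% of those changed 2-fold were recovered, and 5 unchanged genes were called. That simulation gave all genes 1 dispersion and changed a far smaller share than the 44.0% called here, so its rates may not carry over. Overlapping GENCODE genes on the opposite strand exist for Lmo2, Sox17 and Meis1, and reads of such partners cannot be told apart without the strand setting. Meis1 also overlaps 3 GENCODE genes on its own strand, which a strand setting would not separate.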

Additional observations from a re-analysis of the deposited data

How the results depend on the processing

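Over 17 alternatives Tfec, Sox7, Hhex, Sox18 and Meis1 kept their direction and their edgeR, DESeq2 or limma-voom calls, and 2 members were called higher in each. Against a minimum fold of 1.2 (glmTreat), 1210 genes were called higher and 1327 lower, 3 members lower and 6 list genes higher; Gata2 (log2 fold change -0.30) and Tal1 (-0.24) were then not called. With library sizes alone 32.7% of called genes were higher against 48.6% with TMM, and Gata4 passed at -0.24. With single libraries left out the log2 fold change lay between -0.37 and -0.23 for Gata2, which lost its call without any of control replicates 2, 3 and 4 and stretch replicates 1 and 2, and between -0.23 and -0.087 for Gata4. The range was -0.12 to 0.041 for Lmo2 and -0.20 to 0.0051 for Sox17, whose signs turned without control replicate 4. The summed stellate marker difference ranged from -17.6 to 1.84 CPM (1.78 without stretch replicate 4) and the erythroid one from -0.61 to 0.0438 CPM. The cause of these shifts was not tested. Numbers 2 and 4 occur in both groups, but the labels tie them to no common isolation or day. The replicate block compares the groups within these numbers only. Control replicate 3 and stretch replicate 1 thus add nothing to its fold changes or to the spread of each gene behind its p-values. Deviations from the group means correlated at 0.23 for number 2 and -0.11 for number 4 across genes, which are not independent replicates. For control and stretch libraries with unlike numbers these correlations ran from -0.20 to 0.15. With the replicate block 2713 genes were called higher and 2855 lower, Sox17 passed (-0.18; edgeR adjusted p = 0.0293) and Gata2 did not (-0.19; edgeR adjusted p = 0.209). With 3 libraries a group, exact permutation cannot go below 0.1.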

Other observations

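The genes whose profiles over the 6 libraries lay nearest to each factor were taken from 11136 genes by the root mean square difference of centred log2 CPM. For Sox7 they were Slc16a6, a transporter gene (0.021 log2 units), and Gimap6 (0.033), with log2 fold changes of 0.64 and 0.58. Tfec was nearest to Rap2b (0.041) and Slfn3 (0.042). Sox18 had more distant neighbours, Arrb1 (0.078), which encodes beta-arrestin 1, and Il16 (0.089), with log2 fold changes of -0.95 and -0.97. The nearest genes to Meis1 were Ift140 (0.095) and Slc22a17 (0.11). Hhex lay nearest to Parp9 (0.025) and Rcn3 (0.038), and Tal1 to Ttc3 (0.0086) and Tspan7 (0.013). Gata2 was nearest to Ppp1r12b (0.025) and Snrnp25 (0.045), Gata4 to Samd1 (0.021) and Tbc1d24 (0.031), Lmo2 to Galc (0.036) and Magi1 (0.040), and Sox17 to Mmd (0.045) and Adat3 (0.047). All profiles come from the same 6 libraries in 2 groups, and the distances carry no test.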
